A study of Mus musculus with 16 samples.

Results

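The 35 genes described here are classical interferon-stimulated genes of the mouse, a list of well-known interferon-induced genes and receptor chains looked up by gene symbol among the 29806 genes of the deposited tables. All 35 were found, and all 35 were among the 14179 genes with enough counts to be tested. RNA was sequenced from bone marrow cells of control mice, labelled WT (wild type), and of Jak2V617F mice, which carry an activating mutation of the kinase Jak2 that is known from myeloproliferative neoplasms. From each genotype there were hematopoietic stem cells (HSC) and the multipotent progenitors called MPP3, the latter taken as negative for Fcgr (Fc gamma receptors). The 4 groups, control HSC, Jak2V617F HSC, control MPP3 and Jak2V617F MPP3, held 4 libraries each, 16 in all, and the number of a replicate is also its batch in the labels. The age and strain of the mice, the promoter or Cre that drives the mutant allele, and whether libraries came from separate animals could not be read from the labels, so p-values measure the spread between these libraries, which may be partly technical.

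Interferons are secreted antiviral proteins. Type I interferons bind a receptor made of the Ifnar1 and Ifnar2 chains, whose attached kinases Jak1 and Tyk2 phosphorylate Stat proteins, and these join Irf9 on a DNA motif called the interferon-stimulated response element (ISRE), while interferon gamma works through Jak1 and Jak2 and Stat dimers that bind the gamma-activated site (GAS). The genes so switched on encode sensors of viral RNA and DNA, enzymes and binding proteins that block viral growth, and feedback regulators, and stem cells are known to express some of them without infection.

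RefSeq promoter sequences (GRCm38.p6, from 250 bases before to 50 bases after the start of each gene) were matched for 26 of the 35 genes. An ISRE core, searched on both strands as GAAA, NN (2 bases of any kind) and GAAA again, lay in 10 of these 26 (38.5%) and in 3.98% of the 26994 genes of the promoter table. The GAS, searched as TTCNNNGAA, which reads alike on both strands, lay in 8 of the 26 (30.8%) and in 9.55% of all. The ISRE was found at Ifih1, Ddx58, Ifit1, Ifit3, Oas1a, Oas3, Isg15, Rsad2, Bst2 and Trim30a, and the GAS at Ifnar1, Ifnar2, Irf1, Ifit2, Oas1a, Isg20, Bst2 and Ifi35. A match is a description of the letters, not of binding.

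The stretches below show how the motifs sit before the start in genes to which the results return. Ifit1 (chr19:34640755-34640843, plus strand) and Isg20 (chr7:78913321-78913389, plus strand) were among the genes that differed between HSC and MPP3. Isg15 (chr4:156200845-156200926, minus strand), Irf1 (chr11:53769894-53769962, plus strand) and Bst2 (chr8:71537557-71537638, minus strand) were not called in any comparison. Oas1a (chr5:120907526-120907653, minus strand) had the lowest adjusted p of the 35 in the genotype comparison of HSC. Each is written along the gene from 5′ to 3′, and capitals mark the matches, which overlap in Isg15, Oas1a and Bst2. Ifit1 holds 2 ISRE matches read on the other strand, Isg15 3 in tandem, Oas1a and Bst2 2 each beside 1 GAS, and Irf1 and Isg20 1 GAS each.
Ifit1: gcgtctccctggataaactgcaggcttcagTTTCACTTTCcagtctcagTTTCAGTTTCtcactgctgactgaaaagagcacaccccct
Isg15: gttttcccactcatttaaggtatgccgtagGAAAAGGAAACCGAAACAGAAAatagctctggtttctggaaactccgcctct
Oas1a: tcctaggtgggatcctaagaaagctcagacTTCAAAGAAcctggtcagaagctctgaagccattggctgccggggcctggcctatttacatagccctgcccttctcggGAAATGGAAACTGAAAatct
Bst2: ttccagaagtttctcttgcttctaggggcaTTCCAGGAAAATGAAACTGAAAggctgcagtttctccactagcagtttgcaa
Irf1: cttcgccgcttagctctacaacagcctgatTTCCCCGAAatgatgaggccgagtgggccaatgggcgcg
Isg20: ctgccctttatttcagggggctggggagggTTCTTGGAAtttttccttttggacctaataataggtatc

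The estimated counts of a library summed to 33.1 to 41.2 in units of 1e+06. Levels below are CPM (counts divided by the library total in units of 1e+06, scaled by the TMM factors of edgeR), and changes are log2 fold changes with their standard error (SE). A gene is said to have risen or fallen only where the adjusted p of edgeR's quasi-likelihood test, corrected over all 14179 genes, was under 0.05. Marker RNAs went with the labelled cell types: the summed level of 10 HSC markers was 2520 to 2650 CPM in control HSC, 1320 to 1390 in Jak2V617F HSC, 659 to 858 in control MPP3 and 428 to 634 in Jak2V617F MPP3. All 10 were lower in MPP3 than HSC in control and 7 in Jak2V617F mice, 5 were lower in Jak2V617F than in control HSC and 1 (3 in DESeq2) in Jak2V617F than in control MPP3. The summed HSC marker level thus differed between genotypes without overlap in both cell types, and its part in the results was not tested. Jak2 itself was found in every library, at 15.0 to 32.5 CPM, and these totals cannot show the point mutation.

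Expressed per length, as the mean of the deposited TPM (a share of the library's transcripts, scaled by length) over all 16 libraries, Lgals3bp, a secreted glycoprotein, was highest at 271 TPM (192.5 to 328.6 over libraries). Bst2, the tetherin that holds budding virus at the cell surface, followed at 145 TPM, Irf1 at 89.6 TPM and Ifnar2 at 72.2 TPM. At the other end stood Oas2 at 1.86, Ifit3 at 1.74, Mx2 at 0.934 and Mx1 at 0.443 TPM. The ranges of neighbours in this order mostly overlapped, and Bst2, at 131 to 168.5 TPM, overlapped neither Lgals3bp above it nor Irf1 (65.7 to 119 TPM) below it. Over the 31 genes that averaged 10 CPM or more, the mean log2 CPM was 5.68 ± 0.13 (SD, n = 4) in control HSC, 5.60 ± 0.11 in Jak2V617F HSC, 5.42 ± 0.16 in control MPP3 and 5.45 ± 0.16 in Jak2V617F MPP3. Single libraries ran from 5.55 to 5.85, 5.47 to 5.70, 5.22 to 5.60 and 5.31 to 5.66 in the same order, so all 4 groups overlapped in this mean.

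**Figure D1:**
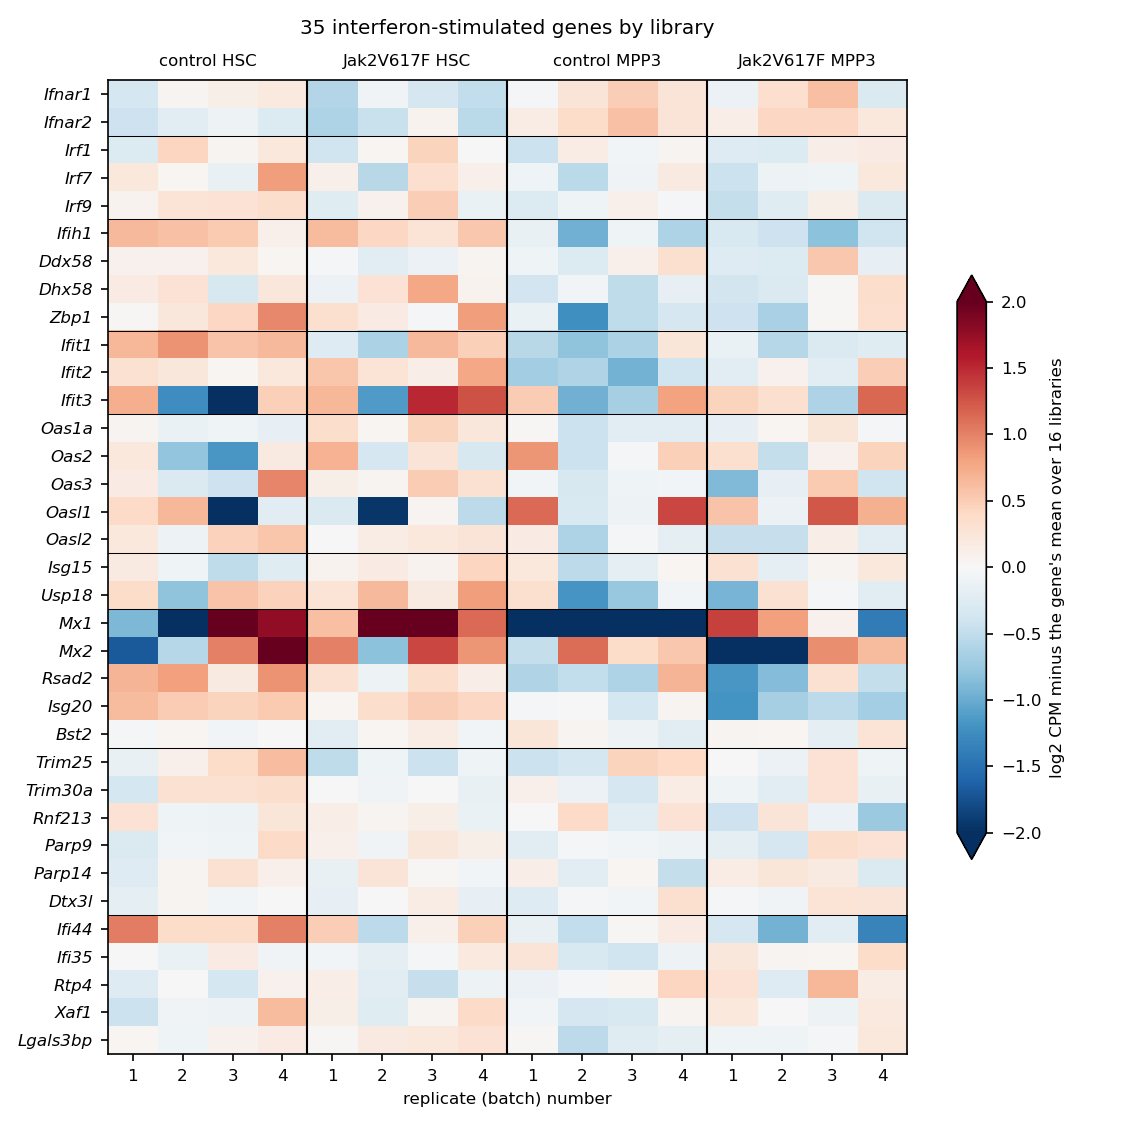
Log2 CPM of the 35 genes (rows, ordered by role) in each of the 16 libraries (columns, by group and replicate number), minus the mean of the gene over all libraries; red is above and blue below that mean, and the color scale ends at 2 in either direction. Ifnar2 is paler red or red in MPP3 and blue in most HSC libraries, and Ifih1 is red in HSC and mostly blue in MPP3. Isg20 is red in most HSC libraries, close to its mean in most control MPP3 libraries and blue in Jak2V617F MPP3. The widest swings are in Mx1, Mx2 and Ifit3, which have few counts, and in Oasl1.

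The first comparison was of Jak2V617F with control HSC. None of the 35 passed edgeR's test, against 7.3% of all genes (4.56% higher and 2.74% lower in Jak2V617F). At an unadjusted p under 0.05 there were 2 (21.7% of all genes), Oas1a higher and Trim25 lower. DESeq2 called 1, Oas1a, beside 14.6% of all genes in DESeq2, and limma-voom none, beside 8.96%. Log2 fold changes were positive for 12 and negative for 23 genes with a median of -0.04, beside a median of -0.06 over all genes, of which 55.7% were negative. No gene had groups that did not overlap, where 7.26% of all genes lay wholly higher and 7.6% wholly lower. The 95% interval of the change lay within 2-fold in either direction for 27 genes and within 1.5-fold for 17, and the 8 wider ones were Ifit1, Ifit3, Oas2, Oasl1, Mx1, Mx2, Rsad2 and Ifi44.

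The receptor chains set the cell's capacity to respond. Ifnar1 was at 60.6, 80.3, 83.8 and 88.8 CPM in control HSC (replicates 1 to 4) and at 51.6, 73.4, 61.6 and 54.8 in Jak2V617F HSC. Ifnar2, the high-affinity chain, was at 65.9, 75.9, 81.6 and 72.7 CPM in control and 57.2, 64.3, 92.2 and 60.7 in Jak2V617F HSC. Below every control library lay 2 mutant libraries for Ifnar1 and 3 for Ifnar2, and the ranges overlapped. The change was -0.38 ± 0.18 for Ifnar1 (edgeR adjusted p = 0.246, 95% interval -0.77 to 0.01) and -0.11 ± 0.14 for Ifnar2 (edgeR adjusted p = 0.742, -0.41 to 0.19).

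Of the transcription factors, Irf9 is the DNA-binding partner of Stat proteins, Irf1 acts early after interferon gamma, and Irf7 amplifies interferon production. Irf1 stood at 127, 205, 160 and 178 CPM in control HSC and 117, 157, 209 and 152 in Jak2V617F HSC. Irf7 stood at 45.6, 40.8, 35.7 and 70.7 CPM in control and 42.5, 26.8, 49.9 and 42.4 in Jak2V617F HSC. Irf9 stood at 121, 139, 140 and 146 CPM in control and 96.9, 122, 162 and 105 in Jak2V617F HSC. In each the groups overlapped, and the highest value came from control replicate 4 for Irf7 and from mutant replicate 3 for Irf1 and Irf9. Their changes were -0.08 ± 0.18, -0.25 ± 0.23 and -0.17 ± 0.15 in that order (edgeR adjusted p 0.870, 0.584 and 0.601).

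Isg15, a ubiquitin-like protein that is attached to other proteins, and Usp18, the protease that removes it and also damps the receptor, are among the genes most used to read interferon signalling. Isg15 was at 14.8, 12.3, 9.21 and 11.1 CPM in control HSC and 13.8, 14.7, 13.8 and 17.7 in Jak2V617F HSC. Usp18 was at 48.8, 21.7, 56.6 and 52.5 CPM in control and 46.1, 59.9, 42.9 and 67.8 in Jak2V617F HSC. The top mutant library exceeded every control library for both, and the remaining ranges crossed. The change was 0.34 ± 0.20 for Isg15 (edgeR adjusted p = 0.360, 95% interval -0.09 to 0.77) and 0.27 ± 0.33 for Usp18 (edgeR adjusted p = 0.727, -0.43 to 0.97).

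Oas1a, named after its values were seen, makes the short oligoadenylates that activate RNase L. It was at 57.0, 49.7, 51.5 and 49.0 CPM in control HSC and 69.7, 56.1, 74.8 and 64.1 in Jak2V617F HSC. Of the mutant libraries 3 lay above all controls, and replicate 2 lay just below the highest control. The change of 0.35 ± 0.12 missed the threshold (edgeR adjusted p = 0.0998), and passed it in DESeq2 (adjusted p = 0.0376), with the near-identical copy Oas1g added (0.0433 in edgeR) and without mutant HSC replicate 2 (0.0480 in edgeR). Over its 18 alternatives the adjusted p ran from 0.0376 to 0.356. The other genes are given by role: sensors Ifih1, Ddx58, Dhx58 and Zbp1 had log2 fold changes of -0.18 to 0.18, and the 6 ubiquitin and ADP-ribose enzymes Trim25, Trim30a, Rnf213, Parp9, Parp14 and Dtx3l of -0.54 to 0.09, the lowest being Trim25. Among the 3 IFIT proteins, which bind viral RNA, the fitted changes ran from -0.56 (Ifit1) to 1.05 (Ifit3, at 0.156 to 5.54 CPM). The other OAS genes, Oas2, Oas3, Oasl1 and Oasl2, had log2 fold changes from -0.48 (Oasl1) to 0.42 (Oas2). Antiviral effectors Mx1, Mx2, Rsad2, Isg20 and Bst2 spanned -0.49 (Rsad2) to 1.04 (Mx1, from few counts). Ifi35, Rtp4, Xaf1, Lgals3bp and Ifi44 spanned -0.54 to 0.13, the lowest being Ifi44 (-0.54 ± 0.28, edgeR adjusted p = 0.278). Ifi44, Ifnar1 and Trim25 were lower in Jak2V617F in all 4 batches, and Ifit2 and Oas1a were higher in all 4. How many of all genes kept the same direction in all 4 batches was not counted.

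**Figure D2:**
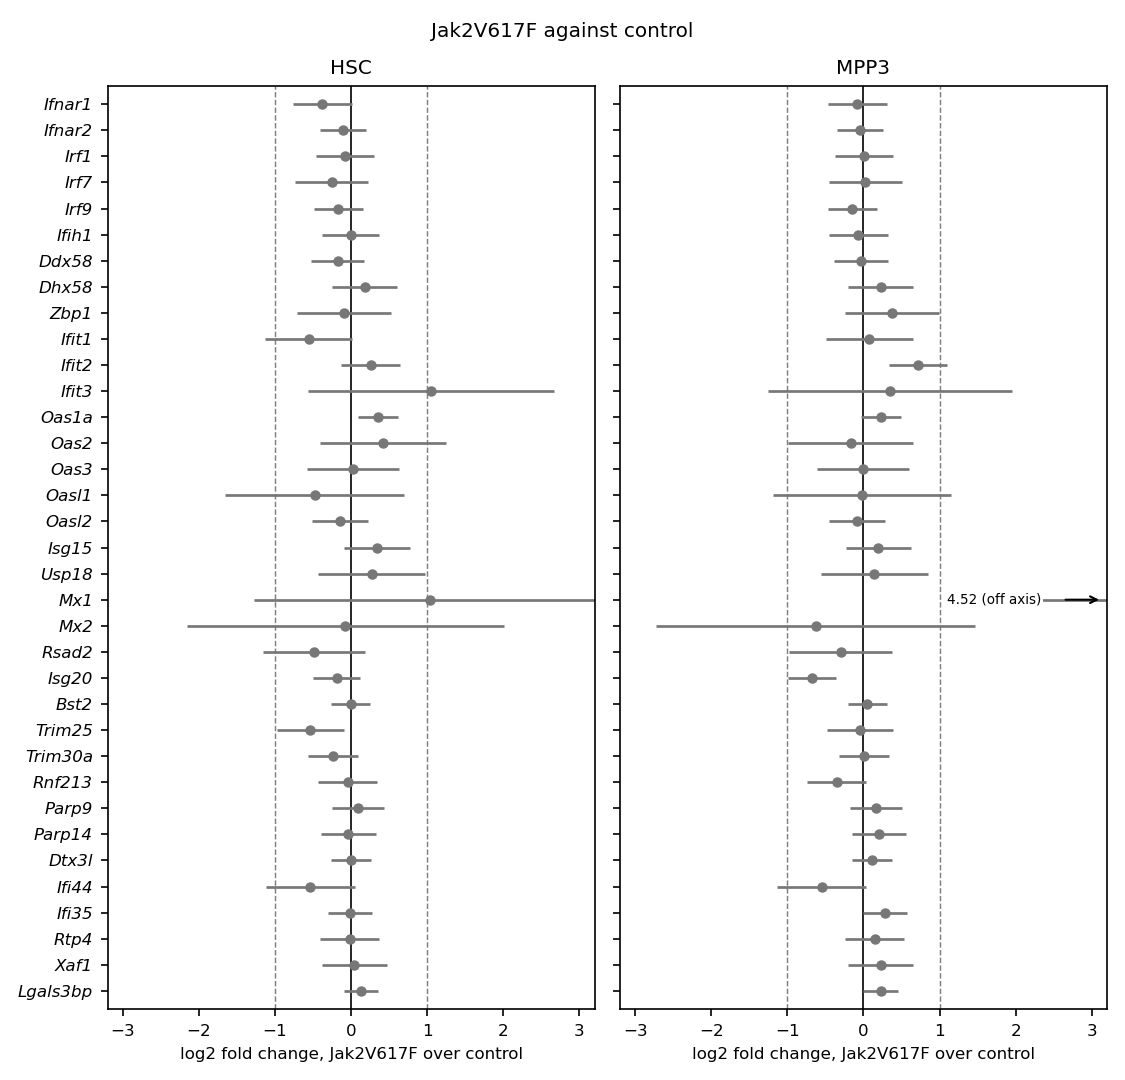
Log2 fold change of Jak2V617F over control (points) with its 95% interval (lines) for the 35 genes in HSC (left) and MPP3 (right); dashed lines mark a 2-fold change, and grey means not past the threshold. All points are grey; most intervals lie between the dashed lines, and the value of Mx1 in MPP3, 4.52 from few counts, is off the axis and marked by an arrow.

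The same comparison in MPP3 gave 0 called genes of 35, against 0.0635% of all genes (0.0141% higher and 0.0494% lower). An unadjusted p under 0.05 was reached by 3 (13.8% of all genes), Ifit2 and Mx1 higher and Isg20 lower in Jak2V617F, and these 3 were also the genes whose groups did not overlap (3.65% of all genes lay wholly higher and 3.48% wholly lower). DESeq2 called these 3, beside 3.47% of all genes in DESeq2, and limma-voom none, beside 0.0423%. Signs were 20 positive and 15 negative with a median of 0.02, beside -0.02 over all genes, of which 52.8% were negative. The 95% interval lay within 2-fold for 29 genes and within 1.5-fold for 18.

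Ifit2 was at 17.6, 18.8, 14.8 and 21.8 CPM in control MPP3 and 24.6, 30.3, 24.7 and 40.3 in Jak2V617F MPP3, every mutant library above every control. The change was 0.72 ± 0.18 (edgeR adjusted p = 0.119), and it passed with the replicate number as a block (edgeR adjusted p = 0.0472), in DESeq2 (0.0129) and without mutant MPP3 replicate 3 (0.0491 in edgeR), with a range of 0.0129 to 0.289 over 18 alternatives. Isg20, an exonuclease that degrades single-stranded RNA, was at 36.8, 37.5, 29.5 and 39.0 CPM in control and 16.4, 23.8, 26.1 and 23.6 in Jak2V617F MPP3, every mutant library below every control. Its change was -0.67 ± 0.15 (edgeR adjusted p = 0.0841), and it passed in DESeq2 (0.00232) and without mutant MPP3 replicate 3 (0.0346 in edgeR), with a range of 0.00232 to 0.238 over 18 alternatives. Ifit2 and Isg20 stood apart between genotypes in opposite directions.

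Mx1, a GTPase against influenza-type viruses, had 0, 1, 1 and 1 counts in control MPP3 and 35, 24, 15 and 4 in Jak2V617F MPP3. The ratio of the summed counts, scaled for library size, control over Jak2V617F, was 0.0391 (95% interval 0.0079 to 0.119, counting error only). The edgeR adjusted p of Mx1 was 0.155 (0.0252 in DESeq2, up to 0.992 over the 17 alternatives that tested it). Mx1 and the related Mx2, annotated as a polymorphic pseudogene, share similar sequence, and Mx2 had 29, 88, 58 and 71 counts in control and 6, 1, 90 and 73 in Jak2V617F MPP3. With both summed the log2 fold change went from 4.52 for Mx1 alone to -0.07 (edgeR adjusted p = 0.992). Mx2 gave most of that sum, with 246 counts in control and 170 in Jak2V617F MPP3, beside 3 and 78 for Mx1. The sum therefore cannot show whether the ratio above depends on the deposited split of reads between them, which is uncertain. Similar sequence is shared also by Ifit3 with Ifit3b, Oas1a with Oas1g, and the Trim30 family, so the split of reads within each set is uncertain.

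Ifnar1 was at 75.5, 92.4, 108.5 and 92.8 CPM in control MPP3 and 71.4, 97.5, 118 and 63.1 in Jak2V617F MPP3. Irf1 was at 114, 170, 147 and 160 CPM in control and 128, 127, 168 and 171.5 in Jak2V617F MPP3. Irf7 was at 37.2, 27.2, 37.5 and 44.7 CPM in control and 29.4, 36.6, 37.1 and 46.0 in Jak2V617F MPP3. The highest library was a mutant one for each of these 3, and the lowest was a mutant one for Ifnar1 and a control one for Irf1 and Irf7. Irf9 was at 95.1, 109, 124 and 113 CPM in control and 82.2, 97.5, 124.5 and 93.7 in Jak2V617F MPP3. Isg15 was at 15.2, 9.10, 11.6 and 13.5 CPM in control and 16.3, 11.5, 13.6 and 15.3 in Jak2V617F MPP3. Usp18 was at 47.7, 16.8, 22.5 and 36.7 CPM in control and 19.9, 46.7, 37.4 and 32.5 in Jak2V617F MPP3. Genotypes overlapped in all 6 genes, with log2 fold changes from -0.15 (Irf9) to 0.20 (Isg15) and edgeR adjusted p from 0.748 to 1.0 for these and for Ifnar2. Of the roles not yet given, sensors had log2 fold changes of -0.07 to 0.38, the OAS family -0.17 to 0.23, and ubiquitin and ADP-ribose enzymes -0.35 to 0.20. Ifi44 was at -0.55, and Ifi35, Rtp4, Xaf1 and Lgals3bp lay between 0.15 and 0.28. Lower in Jak2V617F in all 4 batches were Ifi44 and Isg20. Higher in all 4 were Ifit2, Isg15, Mx1, Parp14 and Xaf1, again without a count over all genes.

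Since batches hold 1 library of each group, the genotype difference was also taken within each batch. The number of the 35 genes higher in Jak2V617F was 12, 14, 23 and 9 in HSC and 12, 20, 28 and 17 in MPP3 for batches 1 to 4. The median over the genes was -0.08, -0.06, 0.18 and -0.23 in HSC and -0.16, 0.16, 0.23 and -0.03 in MPP3. Of all tested genes 45.0% to 48.2% were higher in each batch in HSC and 47.0% to 49.5% in MPP3, and their median stayed between -0.045 and 0.00. The direction for the set as a whole was thus not the same in every batch in either cell type.

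Between MPP3 and HSC some of the genes passed the test. In control mice 7 of the 35 genes (20%) passed, beside 13.6% of all genes. Ifnar2 was higher in MPP3, 1 gene beside 6.67% of all. Ifih1, Ifit2, Isg20, Ifit1, Mx1 and Zbp1 were lower, 6 genes beside 6.91% of all. Of these 6, Mx1 had too few counts to be tested in the fit on the control libraries alone. The main fit tested Mx1 only because the Jak2V617F libraries were in the model. In Jak2V617F mice 3 genes (8.57%) passed, beside 8.36% of all: Ifnar2 was higher (3.69% of all genes higher) and Isg20 and Ifih1 lower (4.68% lower). At an unadjusted edgeR p under 0.05 there were 11 genes in control mice (26.5% of all genes) and 9 in Jak2V617F mice (20.4%). Log2 fold changes were negative for 25 of 35 in control mice with a median of -0.21 (50.5% of all genes negative, median -0.01) and for 24 in Jak2V617F mice with a median of -0.18 (49.8%, median 0.00). In bulk RNA, fewer cells that express a gene and less RNA per cell cannot be told apart. The share called in Jak2V617F mice was near that of all genes.

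Ifih1 (chr2:62595798-62646255, minus strand, GRCm38) encodes MDA5, a sensor of long double-stranded RNA. It was at 82.6, 79.1, 75.8 and 56.7 CPM in control HSC and 47.6, 27.0, 49.8 and 34.3 in control MPP3. In Jak2V617F mice it was at 81.4, 70.5, 63.9 and 76.7 CPM in HSC and 42.5, 39.5, 29.8 and 39.8 in MPP3. Every MPP3 library lay below every HSC library of its genotype. Ifih1 fell by 0.89 ± 0.18 in control (edgeR adjusted p = 0.00316) and by 0.95 ± 0.18 in Jak2V617F mice (edgeR adjusted p = 0.00267). The related sensors Ddx58 (RIG-I) and Dhx58 (LGP2) had log2 fold changes of -0.07 and -0.38 in control mice and 0.08 and -0.34 in Jak2V617F mice, and did not pass.

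Isg20 (chr7:78913424-78920396, plus strand) was at 58.7, 53.4, 51.3 and 54.3 CPM in control HSC and 38.7, 48.4, 53.0 and 50.5 in Jak2V617F HSC, beside the MPP3 values above. It fell in MPP3 by 0.61 ± 0.15 in control mice (edgeR adjusted p = 0.0110) and by 1.09 ± 0.15 in Jak2V617F mice (edgeR adjusted p = 0.000125), with no overlap between cell types in either. The difference between these 2 changes was -0.48 ± 0.21, the lowest p of the 35 genes for that comparison (unadjusted p = 0.0352, edgeR adjusted p = 0.672), and so did not pass.

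The IFIT genes lie side by side on chromosome 19. Ifit2 (chr19:34550694-34576419, plus strand) was at 35.3, 33.4, 29.4 and 33.2 CPM in control HSC and at 42.0, 34.5, 31.5 and 48.7 in Jak2V617F HSC. Ifit1 (chr19:34640871-34650009, plus strand) was at 24.7, 29.3, 23.1 and 24.4 CPM in control HSC and 10.6, 8.95, 10.1 and 18.5 in control MPP3. In Jak2V617F mice Ifit1 was at 13.0, 10.1, 24.4 and 21.7 CPM in HSC and 14.2, 10.5, 12.8 and 13.2 in MPP3. All 4 control HSC libraries lay above every MPP3 library for Ifit1, and 2 of the Jak2V617F HSC libraries lay in the range of MPP3. In control mice Ifit1 fell by 1.08 ± 0.27 (edgeR adjusted p = 0.0140) and Ifit2 by 0.85 ± 0.18 (edgeR adjusted p = 0.00484) in MPP3. In Jak2V617F mice the changes of -0.45 ± 0.27 and -0.39 ± 0.18 did not pass (edgeR adjusted p 0.403 and 0.243), and the difference between genotypes, tested itself, did not pass either (0.63 ± 0.38 and 0.46 ± 0.26, edgeR adjusted p 0.840 and 0.818).

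Zbp1, a sensor of Z-form nucleic acid that can trigger cell death, was at 10.6, 12.2, 14.0 and 20.5 CPM in control HSC and 9.55, 4.44, 7.38 and 8.26 in control MPP3. In Jak2V617F mice it was at 13.2, 11.8, 10.2 and 18.8 CPM in HSC and 7.88, 6.67, 10.6 and 13.3 in MPP3, where the cell types overlapped. Its fall of 0.95 ± 0.30 in control mice (edgeR adjusted p = 0.0415) passed in 8 of 18 alternatives, with an adjusted p of 0.0148 to 0.170, and without control HSC replicate 4 it was -0.73 (edgeR adjusted p = 0.143). Mx1 had 6, 1, 108 and 54 counts in control HSC and 24, 76, 204 and 35 in Jak2V617F HSC. Over libraries the ratio of control HSC to control MPP3 was 54.4 (95% interval 18.3 to 266, counting error only), from 169 and 3 counts, yet the libraries overlapped. The fitted change was -5.53 ± 1.40 (edgeR adjusted p = 0.0141). In the fit on the control libraries alone Mx1 had too few counts to be tested. Over its 17 other alternatives the adjusted p ran from 0.000380 to 0.464. The call was lost in limma-voom (adjusted p = 0.216) and with Mx2 added (0.464 in edgeR). Mx2, with 347 counts in control HSC and 246 in control MPP3, gave most of that sum. The loss with Mx2 added therefore cannot show whether reads were split wrongly.

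Ifnar2 (chr16:91372783-91405589, plus strand) was the 1 gene that rose. It was at 97.3, 113.5, 131.5 and 104 CPM in control MPP3 and 96.4, 117, 117.5 and 102 in Jak2V617F MPP3, and every one of these lay above every HSC library, as listed above, whichever the genotype. The rise was 0.59 ± 0.14 in control (edgeR adjusted p = 0.00999) and 0.66 ± 0.14 in Jak2V617F mice (edgeR adjusted p = 0.00660). Without mutant HSC replicates 1 and 4, the most alike pair of all replicates, the latter was 0.47 and no longer passed (edgeR adjusted p = 0.126), while its 17 other alternatives passed, down to 0.000258. The partner chain Ifnar1 had a log2 fold change of 0.24 ± 0.18 in control and 0.53 ± 0.18 in Jak2V617F mice (edgeR adjusted p 0.474 and 0.0908). An annotated gene on the same strand, Gm21970, shares 9.46% of the exon bases of Ifnar2.

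**Figure D3:**
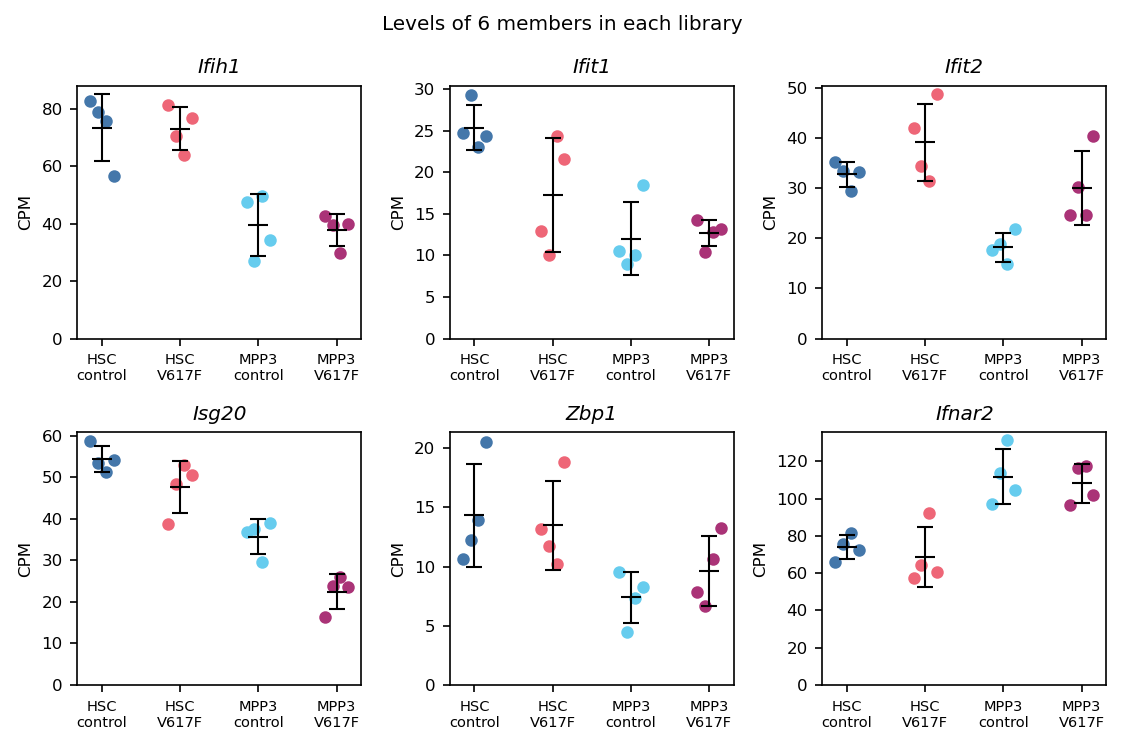
CPM of 6 of the genes that passed between MPP3 and HSC, in every library (points) by group, with the mean and SD of each group (lines, n = 4). Ifih1 and Isg20 are lower and Ifnar2 higher in MPP3 than in HSC in both genotypes with no overlap, Ifit1, Ifit2 and Zbp1 part without overlap in control mice, and Isg20 is lowest in Jak2V617F MPP3.

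Ifi44 had a control MPP3 range, 11.3 to 17.9 CPM, below that of control HSC, 20.5 to 32.5 CPM, and missed the threshold (-0.82 ± 0.28, edgeR adjusted p = 0.0612). It passed with the replicate number, which is the batch, as a block (-0.82, edgeR adjusted p = 0.0362), in DESeq2 (0.0300), with effective-length offsets (0.0347 in edgeR) and in the fit on both groups alone (0.0357 in edgeR), over a range of 0.0300 to 0.153 in 18 alternatives. In Jak2V617F mice the cell types overlapped (-0.84 ± 0.28, edgeR adjusted p = 0.0794, 0.0293 to 0.519 over 18 alternatives, of which 4 called it). In all, 1 gene lay wholly higher and 6 wholly lower in control MPP3 (9.25% and 10.2% of all genes), and 1 and 2 in Jak2V617F MPP3 (6.14% and 7.63% of all genes). Rsad2, or viperin, which makes a chain-terminating nucleotide, had a log2 fold change of -0.81 ± 0.32 in control mice (edgeR adjusted p = 0.108, 0.0109 to 0.242 over 18 alternatives). It passed without control MPP3 replicate 4 (-1.24, edgeR adjusted p = 0.0109), whose 31.5 CPM stood far above the 12.9 to 14.0 of the other 3. Between cell types Isg15 had a log2 fold change of 0.06 ± 0.20 in control and -0.08 ± 0.20 in Jak2V617F mice, with 95% intervals of -0.37 to 0.49 and -0.51 to 0.35. Bst2 stayed between 64.2 and 91.2 CPM in all 16 libraries. The 3 transcription factors had log2 fold changes of -0.40 to -0.18 in control and -0.29 to -0.10 in Jak2V617F mice, and none passed. The OAS family spanned -0.44 to 0.73 in control and -0.39 to 1.19 in Jak2V617F mice, with none called. The enzymes of ubiquitin and ADP-ribose transfer spanned -0.22 to 0.05 in control and -0.26 to 0.30 in Jak2V617F mice.

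**Figure D4:**
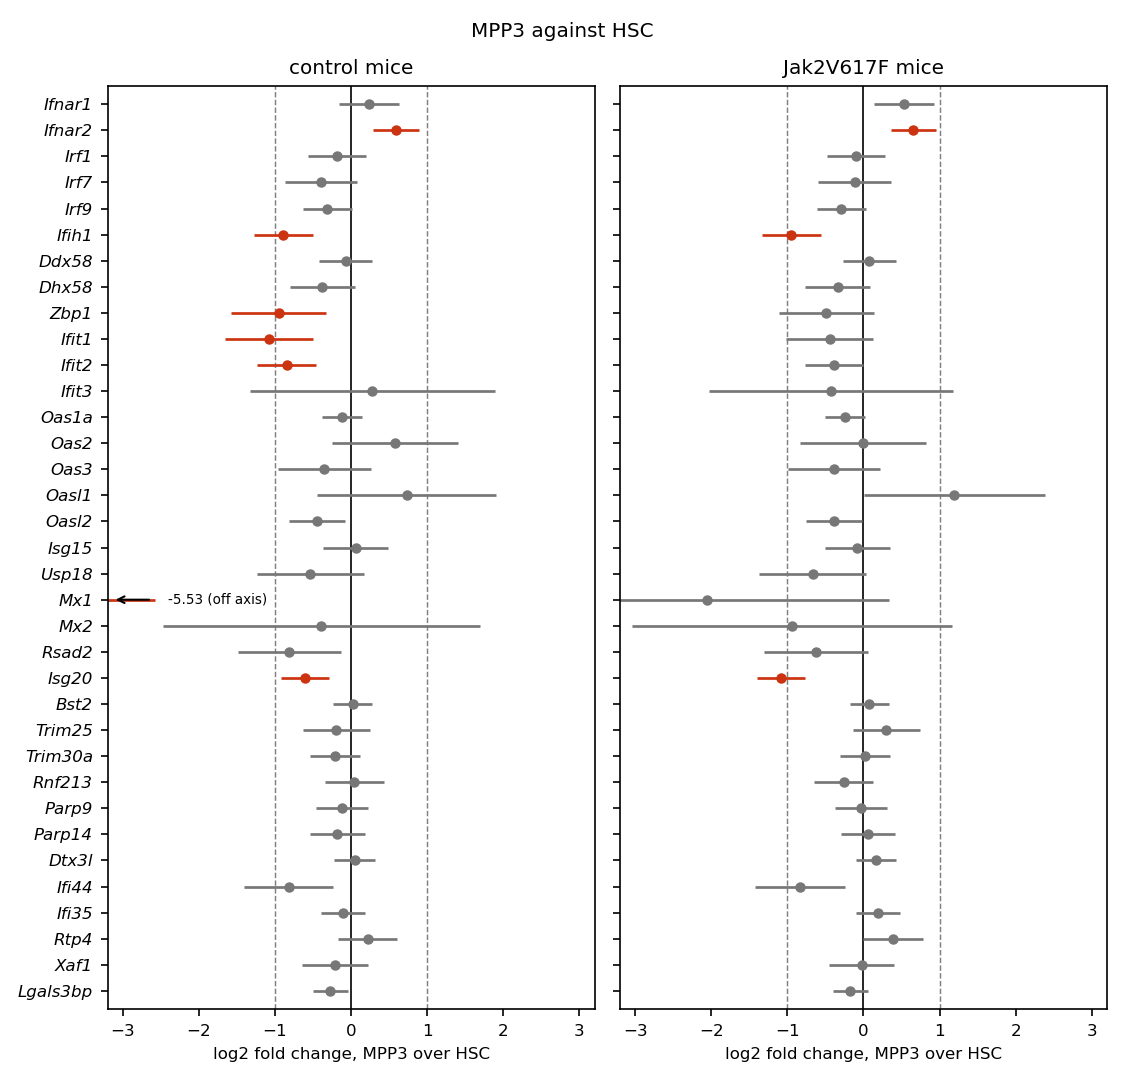
Log2 fold change of MPP3 over HSC (points) with its 95% interval (lines) for the 35 genes in control (left) and Jak2V617F mice (right); red marks an edgeR adjusted p under 0.05 and dashed lines a 2-fold change. In control mice 7 genes are red, among them Mx1, whose value of -5.53 is off the axis, and in Jak2V617F mice 3 are, Ifnar2 to the right of 0 and Ifih1 and Isg20 to the left.

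Within each batch the number of genes lower in MPP3 was 22, 26, 23 and 25 of 35 in control and 21, 26, 22 and 21 in Jak2V617F mice, which is 60% to 74.3% of them, beside 47.8% to 51.7% of all tested genes over the same 8 pairs of libraries. The share of the 35 lower in MPP3 was above that of all genes in each pair. The test of whether the genotype effect differs between MPP3 and HSC called none of the 35 (0.0423% of all genes, 0.0141% with a positive and 0.0282% with a negative difference), with 1 gene, Isg20, at an unadjusted edgeR p under 0.05 (6.93% of all genes). This difference was negative for 11 of the 35 genes and for 50.1% of all. DESeq2, limma-voom and every other alternative also called 0 for this difference.

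Markers of other cells differed between the cell types. Of 10 MPP3 and early myeloid markers 9 were higher in MPP3 in each genotype, and their summed level was 370 to 449 and 208 to 374 CPM in control and Jak2V617F HSC and 2830 to 5890 and 2770 to 4250 CPM in control and Jak2V617F MPP3. Of 11 monocyte and macrophage markers 3 were higher in MPP3 in each genotype (summed 23.5 to 27.9 and 28.9 to 37.6 CPM in HSC, 49.4 to 135 and 62.0 to 78.2 in MPP3, control first). Of 7 B cell markers 6 were tested and 4 were higher in MPP3 (72.5 to 94.1 and 53.4 to 66.9 CPM in HSC, 114 to 215 and 70.8 to 117 in MPP3). Plasmacytoid dendritic cells are the known main makers of type I interferon, and of their 8 markers Siglech, Cox6a2, Klk1, Ly6d and Cd209d had no count in either HSC group. Of the 4 tested, 2 were higher in control MPP3 and 1 in Jak2V617F MPP3, and the sum of all 8 was 44.6 to 59.2 and 51.3 to 57.6 CPM in HSC and 56.9 to 74.9 and 42.7 to 58.8 in MPP3. The 2 Fcgr genes of the gate summed to 2.52 to 8.16 and 2.56 to 5.70 CPM in HSC and 14.0 to 41.7 and 18.2 to 36.7 in MPP3, and both passed as higher in MPP3. None of 6 tested neutrophil markers passed in edgeR, DESeq2 or limma-voom in any comparison, and 0 had an unadjusted edgeR p under 0.05, but their sum ran from 5.17 to 278 CPM within control MPP3. Of 10 T and NK cell markers 7 were tested and 1 was higher in MPP3 in each genotype (13.3 to 24.4 and 3.59 to 13.0 CPM in HSC, 13.1 to 26.4 and 4.71 to 8.10 in MPP3). Of 7 erythroid markers 1 was lower in Jak2V617F MPP3 than in Jak2V617F HSC (72.1 to 329 and 113 to 247 CPM in HSC, 117 to 259 and 66.2 to 190 in MPP3). Between genotypes in HSC, beside the HSC markers, 1 early myeloid marker was higher and 1 lower, 1 monocyte marker higher and 1 B cell marker lower in Jak2V617F. Between genotypes in MPP3 edgeR called 0 B cell and 0 T and NK cell markers, with medians of -1.98 and -1.45. An unadjusted p under 0.05 was reached there by 4 of the 6 B cell and 2 of the 7 T and NK cell markers, DESeq2 called 2 and 1, and limma-voom 0 of either. The part of these cells in the results above was not tested.

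The rest of the pathway was read from 4 lists. Of 17 interferon ligand genes 14 had no count in any library, which allows up to 0.0906 CPM in the shallowest library, and Ifnz alone was tested, at group means of 0.373 to 0.966 CPM, and was not called. Among 17 tested genes of the receptor and signalling chain, 2 (11.8%, beside 2.74% of all genes) were lower in Jak2V617F HSC: Ptpn1, a phosphatase that acts on Jak kinases (-0.53 ± 0.12, edgeR adjusted p = 0.0125), and Jak1 (-0.40 ± 0.11, edgeR adjusted p = 0.0377), and none was higher. In control mice 4 of the chain (23.5%, beside 6.67% of all genes) were higher in MPP3 and 1 (5.88%, beside 6.91%) was lower: Irf8, a myeloid transcription factor (2.96 ± 0.38), the receptor chains Il10rb (1.01 ± 0.19), Ifngr1 (0.50 ± 0.13) and Ifngr2 (0.80 ± 0.22), and Pias1 (-0.33 ± 0.10). In Jak2V617F mice Il10rb (1.20 ± 0.19) and Irf8 (1.99 ± 0.37) were higher, the 2 called among the 17 (11.8%, beside 3.69% of all genes higher).

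Of 19 tested nucleic acid sensors and adaptors, Rnaseh2b, a subunit of the enzyme that removes RNA from DNA, was the 1 gene higher in Jak2V617F HSC (0.99 ± 0.16, edgeR adjusted p = 0.00158), which is 5.26% of the list beside 4.56% of all genes. Between cell types Rnaseh2b (0.85 ± 0.16) and Tmem173, which encodes STING (0.47 ± 0.15), were higher in MPP3 of control mice (10.5%, beside 6.67% of all genes). In Jak2V617F mice Tmem173 was higher in MPP3 (0.92 ± 0.15), which is 5.26% of the list beside 3.69% of all genes. Of 64 tested further interferon-induced genes, Nmi, a binding partner of Stat proteins (0.66 ± 0.14, edgeR adjusted p = 0.0107), and Psmb9, an immunoproteasome subunit (0.37 ± 0.10, edgeR adjusted p = 0.0405), were higher in Jak2V617F HSC (3.12% beside 4.56% of all genes) and none was lower. Between cell types 5 (7.81%, beside 6.67% of all genes) were higher and 6 (9.38%, beside 6.91%) lower in control MPP3. In Jak2V617F MPP3 5 (7.81%, beside 3.69%) were higher and 7 (10.9%, beside 4.68%) lower. Uba7, the activating enzyme for Isg15, was lower in both (-1.20 ± 0.11 and -1.09 ± 0.11), as was Slfn2 (-3.89 ± 0.31 and -2.31 ± 0.29), while Ccl5, a chemokine (2.76 ± 0.40 and 1.39 ± 0.38), and Apobec3, a cytidine deaminase (0.59 ± 0.10 and 0.55 ± 0.10), were higher in MPP3 of both, control first. Ly6a, the Sca-1 gene used in sorting stem cells, was lower in MPP3 of control mice (49.9 ± 5.82 CPM, against 100.1 ± 10.2 in control HSC) and of Jak2V617F mice (log2 fold change -0.66 ± 0.13), and Samd9l passed as lower in Jak2V617F MPP3 (-1.05 ± 0.21). Between genotypes in MPP3 edgeR called 0 of the 99 tested genes of the 4 lists. Of the 99, 14 had an unadjusted edgeR p under 0.05, beside 13.8% of all genes. Limma-voom called 0, beside 0.0423% of all genes. DESeq2 called 4 (Mlkl, Casp1, Samd9l and Ly6a), beside 3.47% of all genes in DESeq2. Apart from these 4 DESeq2 calls, each of the values called here has an edgeR adjusted p under 0.05.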

How the data were processed

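RNA of sorted cells was sequenced in 16 libraries. The submitters' processing notes name the GRCm38 (mm10) build and the tools cutadapt 4.0, FastQC, HISAT2 and Salmon. Tool roles, transcript set and strand protocol: not given in the sources used here. Per gene, the authors deposited estimated counts that are not normalized, TPM scaled by length and library total, and effective lengths in bases, as other values used in 1 alternative.

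Of 31716 rows, 29806 genes were used and 1910 transcript rows left out; none belongs to the 35 genes. Counts were rounded. Genes were named and placed by GENCODE M21. The test was edgeR 4.0.16 (glmQLFit, robust, and glmQLFTest) in R 4.3.3, with 1 model of 4 groups, TMM, filterByExpr (14179 genes kept) and Benjamini-Hochberg adjustment. SE was the log2 fold change over the square root of F, and intervals are 95%. Deposited TPM served only to order genes. The scripts were tested on simulated data.

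Values in every library were given for Ifnar1, Ifnar2, Irf1, Irf7, Irf9, Isg15, Usp18 and for called members. Per pathway list, up to 4 called genes a comparison were named by adjusted p, with log2 fold changes; Pias1, the genes DESeq2 alone called, Oas1a, Trim25, Ifi44, Rsad2, Bst2, Lgals3bp and the genes of the flags were named after their values were seen. Part of the pathway lists is not reported here and stays out of their counts. The genes and lists were chosen with earlier results of these data known. Alternatives were DESeq2 1.42.0, limma-voom 3.58.1, RLE scaling, the replicate number as a block, length offsets, no filter, removal of haemoglobin, mitochondrial and ribosomal RNA genes, fits on the compared groups, and removal of each library in turn. Added after seeing the data were near-identical copies summed, where the related Mx2 was also added to Mx1, and a fit without both mutant HSC replicates 1 and 4. The pairing of replicate numbers comes from the labels, which call them batches. Deviations of same-numbered libraries correlated at r = -0.032 to 0.164 over 24 pairs. HSC and MPP3 of the same genotype correlated at 0.082 to 0.141 in control and 0.083 to 0.164 in Jak2V617F mice. All other pairs lay at -0.032 to 0.098. The main test used no pairing, and the replicate block was shared by all 4 groups.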

Additional observations from a re-analysis of the deposited data

Results flagged for a closer look

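In each of the 140 combinations of the 35 genes with the 4 groups, the highest or lowest library was set against the other 3 by Dixon's ratio. Chance flags about 1 in 20 such groups, or 7 here, and 5 stood out. Ddx58 was at 84.3 CPM in Jak2V617F MPP3 replicate 3, against 48.3 to 51.7 in the others. Ifit1 was at 18.5 CPM in control MPP3 replicate 4, against 8.95 to 10.6. Rsad2 was at 31.5 CPM in the same library, against 12.9 to 14.0. Oas3 was at 31.9 CPM in control MPP3 replicate 2, against 37.3 to 38.2. Trim30a was at 55.4 CPM in control HSC replicate 1, against 87.6 to 90.3.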

How the results depend on the processing

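Between genotypes in HSC 0 genes were called, 1 with DESeq2, 1 with near-identical copies summed, and 0 to 1 when each library was left out. In MPP3 the 0 calls became 1 with the replicate number as a block (Ifit2), 3 with DESeq2, and 0 to 2 when each library was left out. The 7 calls between cell types in control mice became 9 with the replicate block, which adds Ifi44 and Irf9, and the 3 in Jak2V617F mice became 4, which adds Ifnar1; the block changed no other call. Zbp1 also lost its call without control HSC replicate 2 (edgeR adjusted p = 0.0566), 3 (0.0721), and control MPP3 replicate 2 (0.113), 3 (0.0855) or 4 (0.0643), and with effective-length offsets (-0.66, 0.170). Calls were gained in edgeR for Lgals3bp without control MPP3 replicate 1 (0.0353), and in Jak2V617F mice for Ifi44 without mutant HSC replicate 2 (0.0293) or mutant MPP3 replicate 3 (0.0462) and Ifnar1 without mutant MPP3 replicate 4 (0.0406). Ifih1, Ifit1, Ifit2, Ifnar2 and Isg20 passed in all 18 alternatives in control mice. Over all genes, the 1035 calls in HSC became 1794 with DESeq2, 266 without mutant HSC replicates 1 and 4, and 605 to 1412 without 1 library; the 9 in MPP3 became 82 with the block, 511 with DESeq2, 16 with length offsets, 1 without the filter, 0 on the groups alone, and 1 to 209 without 1 library; the 1186 between cell types in Jak2V617F mice became 776 without mutant HSC replicates 1 and 4; and the 6 of the difference became 94 with DESeq2 and 1 with the block. The causes were not tested. Few counts limit Mx1, Mx2, Ifit3 and Oas2.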
